A study of Mus musculus with 2 samples.

Results

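The peaks described here are the narrowest ones in a CUT&Tag peak list from mouse hippocampus: those at most 120 bp wide, which is shorter than the DNA wrapped in a nucleosome core. There were 14705 of them among 99797 peaks (14.7%). They were chosen by their width alone, a measured value, so their widths and everything that follows from them are given as a description. All but 4 of them lay on the assembled chromosomes (14701), and those 4 on unplaced or unlocalized sequences. The authors' table placed 14703 of them relative to genes and did not list the other 2. The series holds 1 anti-FLAG library and 1 IgG library, both made without treatment from the hippocampus of CamK-PARIS mice on the C57BL/6J background. Every peak belongs to the anti-FLAG library. The IgG library entered through the authors' peak detection and was not analysed here. The labels give neither the promoter behind the transgene nor the age or number of the animals. Both libraries carry the same genotype, so no animals without the FLAG-tagged protein stand beside them. With 1 library per antibody there is no replicate error. Intervals below are 95% intervals for counting error over peaks or positions. Peaks from a single library do not replicate each other, and no difference was tested.

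In CUT&Tag the transposase Tn5, fused to protein A, is brought to the antibody's target, cuts the DNA around it and joins adapters to both cut ends, so that each sequenced fragment runs from one cut to the next. PARIS is a zinc-finger repressor, encoded in the mouse by Zfp746, that is known as a substrate of the ubiquitin ligase parkin and as a repressor of Ppargc1a. The DNA element reported for it is the insulin response sequence, TATTTTT or TATTTTG. Short fragments in such libraries are commonly taken to come from DNA outside nucleosomes, where transcription factors bind. The transposase can also cut accessible DNA that the antibody does not mark.

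Sequences of single narrow peaks are shown first because the results turn on their ends and on short elements inside them. All are the plus strand of the mm10 reference over the whole peak, and the positions of the elements are counted from 1 at the 5′ end of the sequence shown. The first 3 have guanine at base 1 and cytosine at base 9, counted inwards from each end on the strand that enters the peak there, and these bases are in capitals. They are the narrowest such peak, in an exon of Tut7, a terminal uridylyltransferase (chr13:59796113-59796150), and the 2 such peaks with the highest maximum signal. These 2 are intergenic and assigned to Tnfrsf1b, a receptor for tumour necrosis factor (chr4:145257858-145257974), and Psmb2, a proteasome subunit (chr4:126660780-126660893). The last 2 are the narrowest of all, which is intergenic and assigned to the ubiquitin ligase gene Mylip (chr13:45361339-45361370), and the highest of all, 136 bp upstream of a transcription start site (TSS) of Mybphl, which encodes a myosin-binding protein (chr3:108364709-108364827). Neither of these has that pattern at an end, and they carry no capitals.
Tut7: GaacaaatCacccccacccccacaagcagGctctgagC
Tnfrsf1b: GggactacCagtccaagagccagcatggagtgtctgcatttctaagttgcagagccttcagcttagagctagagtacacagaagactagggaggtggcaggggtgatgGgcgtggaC
Psmb2: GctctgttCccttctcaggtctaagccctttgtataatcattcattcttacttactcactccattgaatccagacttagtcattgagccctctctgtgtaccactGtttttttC
Mylip: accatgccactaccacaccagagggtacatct
Mybphl: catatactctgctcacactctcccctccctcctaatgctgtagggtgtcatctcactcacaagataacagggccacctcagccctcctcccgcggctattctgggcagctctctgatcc

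The next sequences carry a motif in their interior, taken as the bases more than 15 bp from both ends. The first 3 are among the highest with TGAGTCA or its complement TGACTCA (in capitals), the element bound by AP-1, the family of Fos and Jun proteins. They lie in an intron of Otulin, a deubiquitinase (chr15:27625678-27625789), and in intergenic DNA assigned to Serpina3n, a protease inhibitor (chr12:104415749-104415845), and 1700016G22Rik (chr13:5343266-5343350). The following 2 are the highest with an insulin response sequence (in capitals). One is intergenic and assigned to Cplx2, the complexin of the synaptic release machinery (chr13:54387714-54387818), and one lies 1459 bp upstream of a TSS of Wapl, which releases cohesin from chromatin (chr14:34735711-34735813, element on the minus strand). The last is the highest narrow peak of constant height (defined below) within 1 kb of a TSS. It lies 376 bp downstream of a TSS of Aimp2, a scaffold of the tRNA synthetase complex that is also known as a parkin substrate (chr5:143909331-143909409), and has no capitals.
Otulin: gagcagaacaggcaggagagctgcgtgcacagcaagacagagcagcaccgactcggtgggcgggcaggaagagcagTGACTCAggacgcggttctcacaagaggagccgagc
Serpina3n: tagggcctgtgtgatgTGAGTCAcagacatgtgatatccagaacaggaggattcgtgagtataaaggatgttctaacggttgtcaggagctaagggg
1700016G22Rik: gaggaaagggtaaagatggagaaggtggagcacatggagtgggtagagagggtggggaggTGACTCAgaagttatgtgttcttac
Cplx2: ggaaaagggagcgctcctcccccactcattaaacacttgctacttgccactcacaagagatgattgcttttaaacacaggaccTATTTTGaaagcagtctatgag
Wapl: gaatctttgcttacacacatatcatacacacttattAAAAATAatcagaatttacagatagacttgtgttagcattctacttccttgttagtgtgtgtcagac
Aimp2: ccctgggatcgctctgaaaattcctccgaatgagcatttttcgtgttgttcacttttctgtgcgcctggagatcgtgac

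Almost every narrow peak was a flat block of coverage. Flatness was measured as the authors' total signal divided by maximum signal times width, which is 1 when all bases of a peak have the same coverage, and a peak with a ratio of at least 0.99 is described as of constant height. This held for 13959 narrow peaks (94.9%, interval 94.6 to 95.3), and 746 had another shape. The median narrow peak fell short of a full rectangle by 2 units of coverage times bases, and a median of 2 of its bases lay outside the region of maximum signal. In such a block the coverage rises and falls over its whole height at nearly the same bases. The labels say that duplicate reads were removed, but the files hold no reads and do not state the scaling, so whether the height counts separate fragments, copies of a few fragments or a scaled value was not tested. This bears on the maximum signal and on the number of narrow peaks alike. The median width was 83 bp (quartiles 66 and 100 bp, range 32 to 120 bp). The median of the maximum signal was 109 (quartiles 86 and 129, range 29 to 372). For comparison, the 49206 wider peaks of constant height had a median maximum of 85 and the 35886 wider peaks of other shape one of 135. The lowest total signal anywhere in the list was 3329. A flat peak of 40 bp therefore needs a height of 83.2 to be listed, and one of 120 bp a height of 27.7, which sets a rising floor for the height of narrower peaks. Together the narrow peaks covered 1221 kb, 2.91% of all peak bases, with 4.01% of the total signal.

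The limit of 120 bp cut through peaks of the same kind. The 306 peaks of 119 or 120 bp had a median maximum signal of 113.5, and 94.1% of them were of constant height. The 278 peaks of 121 or 122 bp had a median of 115, with 93.2% of constant height.

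The widths of the narrow peaks were not spread evenly but gathered at regular steps of about 10 bp. Summed over 3 neighbouring widths, the numbers of peaks had maxima at 45, 54, 64, 75, 85, 96, 106 and 115 bp, a mean spacing of 10 bp. The highest of these, at 75 bp, held 1117 peaks, against 370 at the minimum of 69 bp and 481 at the minimum of 80 bp. A single cosine fitted to the numbers, relative to their average over 11 widths, had its best period at 10.35 bp, an amplitude of 41.6% and an R2 of 0.888. Narrow peaks of constant height alone gave a period of 10.3 bp, an amplitude of 43.4% and an R2 of 0.890. In the narrow peaks of other shape the best cosine, with a period of 7.85 bp, explained little (R2 0.113). It rested on 684 peaks, against 12704 of constant height, and does not show whether the steps are absent from them. Beyond 120 bp the peaks of constant height continued the steps more weakly, with a period of 10.1 bp, an amplitude of 14.6% and an R2 of 0.643. The DNA double helix is known to make a full turn in about 10 bp. What set the steps was not tested.

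**Figure D1:**
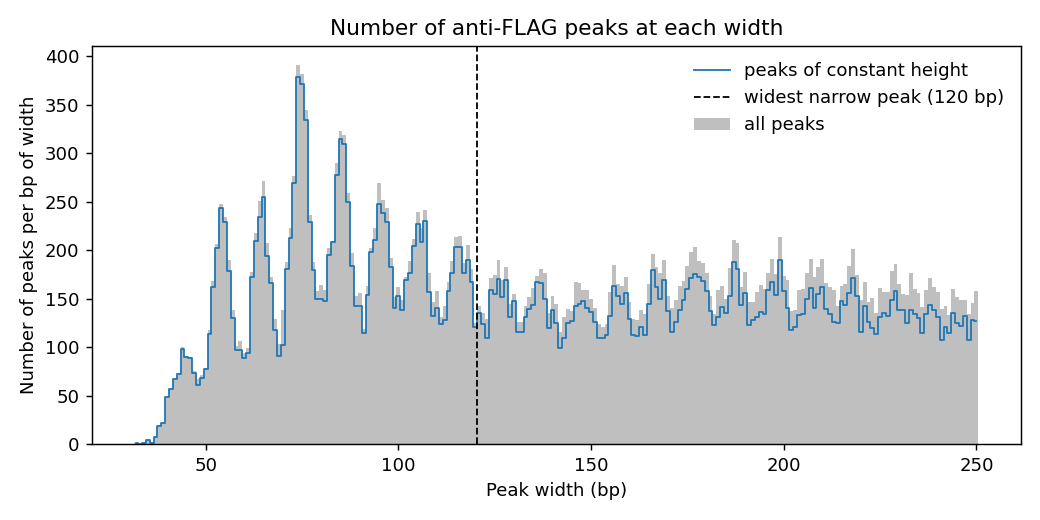
Number of peaks (y axis) at each peak width from 32 to 250 bp (x axis), for all peaks of the anti-FLAG library (grey bars) and for peaks of constant height (blue line), with a dashed line at the widest narrow peak (120 bp). The narrow peaks rise and fall in steps of about 10 bp, with the tallest maximum at 75 bp, and the steps are shallower to the right of the line.

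The ends of the narrow peaks carried a strong base pattern, which the sequences of Tut7, Tnfrsf1b and Psmb2 show. Of 29402 ends, 55.3% had guanine as the first base inside the peak, and 5.43% had thymine there. At base 9, 48.2% had cytosine and 7.62% adenine. Outside the peak, 43.4% had adenine at the first base and 42.7% cytosine at the second. Guanine at base 1 together with cytosine at base 9 occurred at 23.0% of ends (22.5 to 23.5). It occurred at 3.66% of ends when read 1 base further out and at 5.43% when read 20 bases further in. Both ends had the pattern in 783 narrow peaks (5.33%), and 1 or both ends in 5984 (40.7%). Within the narrow peaks it was at 23.4% of the ends of those of constant height (22.9 to 23.9) and 16.2% of those of other shape (14.4 to 18.2). In wider peaks it was at 23.4% of the ends of those of constant height (23.2 to 23.7) and 22.5% of the ends of the others (22.2 to 22.8). A preferred target of this kind, 9 bp long and symmetric, is known for Tn5. Base composition was therefore uneven over about 15 bp on the inner side of each end, and motif densities below are given for interiors, with those at the ends beside them for AP-1 and the insulin response sequence.

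**Figure D2:**
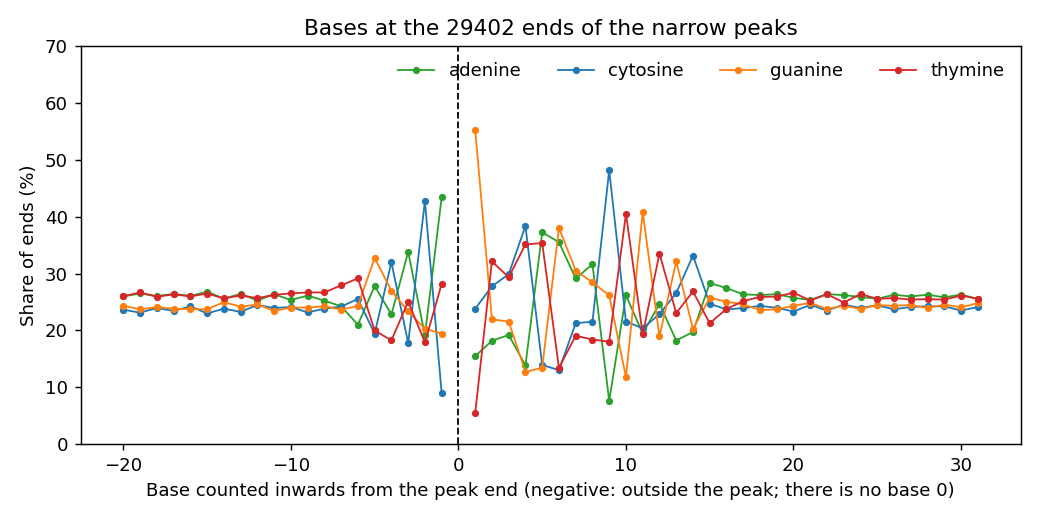
Share of the 29402 ends of narrow peaks (y axis, percent) with adenine, cytosine, guanine or thymine at each position, counted inwards from the end on the strand that enters the peak (x axis; negative positions lie outside, and there is no base 0). Guanine reaches 55.3% at base 1 and cytosine 48.2% at base 9, and from about base 15 inwards the 4 bases lie near 25% each.

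The narrow peaks lay mostly away from promoters, as did the peaks of the whole list. By the authors' annotation, 40.8% were in introns (40.02 to 41.6) and 35.1% were distal intergenic (34.4 to 35.9). Promoters, which reach up to 3 kb from a TSS, held 19.2% (18.6 to 19.9), with 2.97% in exons and 1.71% in 3′ UTRs. Over all peaks of the list these shares were 24.6%, 3.52% and 1.75%. Within 1 kb of a TSS lay 1531 (10.4%, 9.93 to 10.9), of which 689 were upstream, 654 downstream and 188 on the TSS. The median distance to the assigned TSS was 18463 bp, and 18.4% were over 100 kb away. The wider peaks of constant height were similar in their distance from genes, with 10.9% within 1 kb of a TSS (10.6 to 11.2) and 34.1% distal intergenic (33.7 to 34.5), and these intervals overlapped those of the narrow peaks. Other intervals did not overlap. On a TSS lay 1.28% of the narrow peaks (1.11 to 1.47) and 2.67% of the wider ones of constant height (2.53 to 2.81). Exons held 2.97% (2.70 to 3.25) against 4.41% (4.23 to 4.60), and introns 40.8% against 39.1% (38.6 to 39.5). A wider peak has more bases that can reach a TSS or an exon, and the part of width in these shares was not tested. The wider peaks of other shape had 23.4% within 1 kb (22.9 to 23.8) and 27.6% distal intergenic (27.1 to 28.03). Among the peaks of constant height the share within 1 kb was 9.84% at 32 to 60 bp, 9.69% at 101 to 120 bp and 11.8% at 501 to 700 bp, while among the others it was 21.8% at 501 to 700 bp. Another peak lay within 1 kb of 19.1% of narrow peaks (18.4 to 19.7), 18.4% of wider peaks of constant height and 30.4% of the others.

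**Figure D3:**
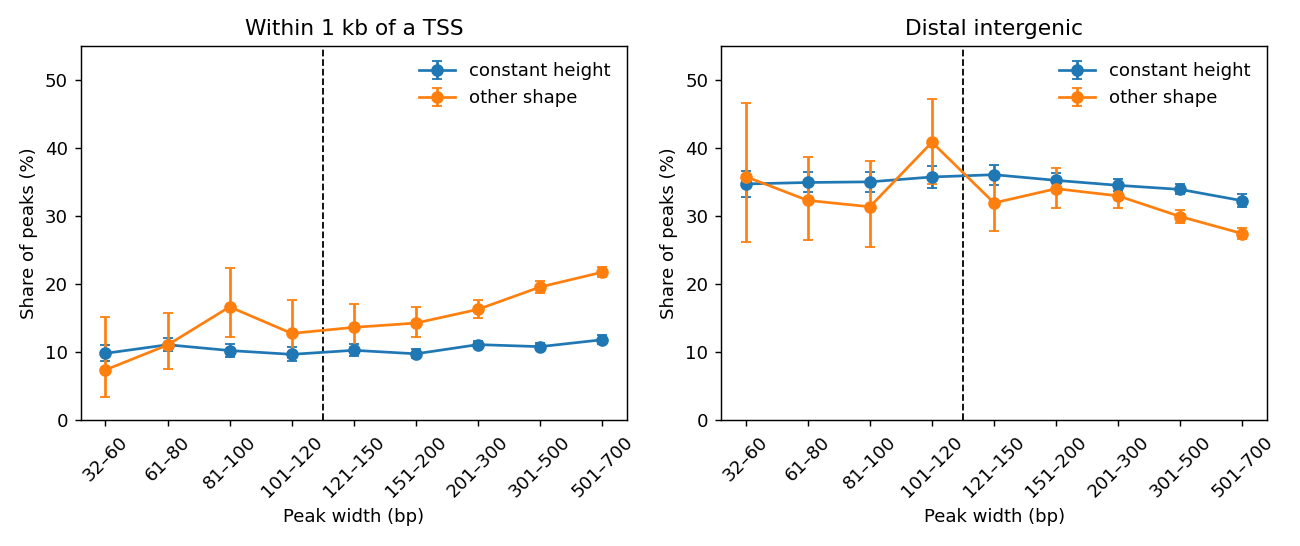
Share of peaks (y axes, percent, with 95% Wilson intervals) within 1 kb of a TSS (left) and distal intergenic (right), by peak width (x axes), for peaks of constant height (blue) and of other shape (orange), with a dashed line at 120 bp. The blue points stay between 9.69% and 11.8% on the left, and the orange ones reach 21.8% in the widest class.

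Narrow peaks were richer in G and C than the DNA beside them. In 100 bp windows centred on 14697 narrow peaks the GC content was 49.2% ± 8.54 (SD over windows), against 44.7% ± 7.49 in windows 1000 bp to either side, a mean difference of 4.51 percentage points. All 100 bp windows of chromosomes 1 to 19 and X had 41.8%. The difference was 1.32 points in wider peaks of constant height and 5.15 in the others. Part of the windows at narrow peaks reaches over the ends with their base pattern. In interiors alone the GC content was 48.1% for narrow peaks, 46.4% for wider peaks of constant height and 52.3% for the others. Repeat-masked bases made up 21.8% of narrow peaks and 34.3% of the genome sequence. Wider peaks had 21.5%, about as much as narrow ones. Repeat-masked bases made up 20.8% of the narrow peaks of constant height and 39.5% of those of other shape. The middle 31 bases occurred once in the genome for 93.8% of narrow peaks, and 908 had further copies. Outside chromosome 18, which was not read for this count, 29 narrow peaks had the whole sequence of another one.

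The AP-1 element was denser in narrow peaks than in the DNA beside them. TGANTCA, read on both strands, occurred 548 times in their interiors, or 7.92 times per 10000 positions (7.27 to 8.62), against 3.08 (2.88 to 3.30) in the windows 1000 bp away, a ratio of 2.57. Within 15 bp of the ends, inside and outside the peak, the density was 5.99 (5.44 to 6.59). In wider peaks of constant height the interior density was 4.17 (4.07 to 4.27), 1.28 times that of their flanks, and in the others 4.55 (4.47 to 4.64), 1.47 times. The forms with C or G in the middle, which Fos and Jun dimers are known to prefer, accounted for most of it. They reached 5.81 in narrow interiors (5.26 to 6.41) against 1.79 in the flanks, a ratio of 3.24, while the forms with A or T in the middle reached 2.11 (1.78 to 2.48) against 1.29. An interior AP-1 element was present in 536 narrow peaks (3.65%, 3.35 to 3.96). Of whole 100 bp windows, 6.74% held one at narrow peaks, 2.84% in the flanks and 2.93% in all windows of chromosomes 1 to 19 and X.

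This density depended on where the peaks lay. It was 8.91 in intronic narrow peaks (7.84 to 10.1) and 8.35 in distal intergenic ones (7.25 to 9.58), but 3.75 within 1 kb of a TSS (2.47 to 5.46), where the flanks had 2.61. In wider peaks of constant height the same 3 places had 4.27, 4.67 and 2.73. Wider peaks of other shape had 5.44 in introns, 5.78 in distal intergenic DNA and 2.39 near TSSs. Narrow peaks with no repeat-masked base had 8.81, and those whose middle 31 bases occur once had 8.19. Narrow peaks of constant height had 7.96 and those of other shape 7.37 (4.90 to 10.7).

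Among peaks of constant height the AP-1 density fell with width, but not at 120 bp. It was 8.97 at 32 to 60 bp, 8.14 at 61 to 80 bp, 7.83 at 81 to 100 bp, 7.81 at 101 to 120 bp and 7.92 at 121 to 150 bp. It was 5.47 at 151 to 200 bp and 4.46 at 201 to 300 bp, and 3.71 at 501 to 700 bp. Peaks of other shape were few below 120 bp, and their intervals were wide. The 81 of 32 to 60 bp held 0 matches (0 to 26.3). The density was 6.43 at 61 to 80 bp (2.09 to 14.996), 5.32 at 81 to 100 bp (1.95 to 11.6) and 9.70 at 101 to 120 bp (5.65 to 15.5). Past the limit it was 10.3 at 121 to 150 bp (7.58 to 13.7), 8.38 at 151 to 200 bp (6.94 to 10.02) and 7.35 at 201 to 300 bp (6.68 to 8.08), and it was 4.55 at 501 to 700 bp. Wider peaks just past the limit were thus about as dense in AP-1 elements as narrow ones. The flanks of the 4 constant-height narrow classes had 2.55 to 3.61. Narrow peaks with an interior AP-1 element were about as high as the rest, with a median maximum signal of 110.5 against 108. They were wider (median 94 against 83 bp), and fewer of them lay within 1 kb of a TSS (4.66% against 10.6%). A wider peak has a longer interior, and the part of this in the difference in width was not tested.

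**Figure D4:**
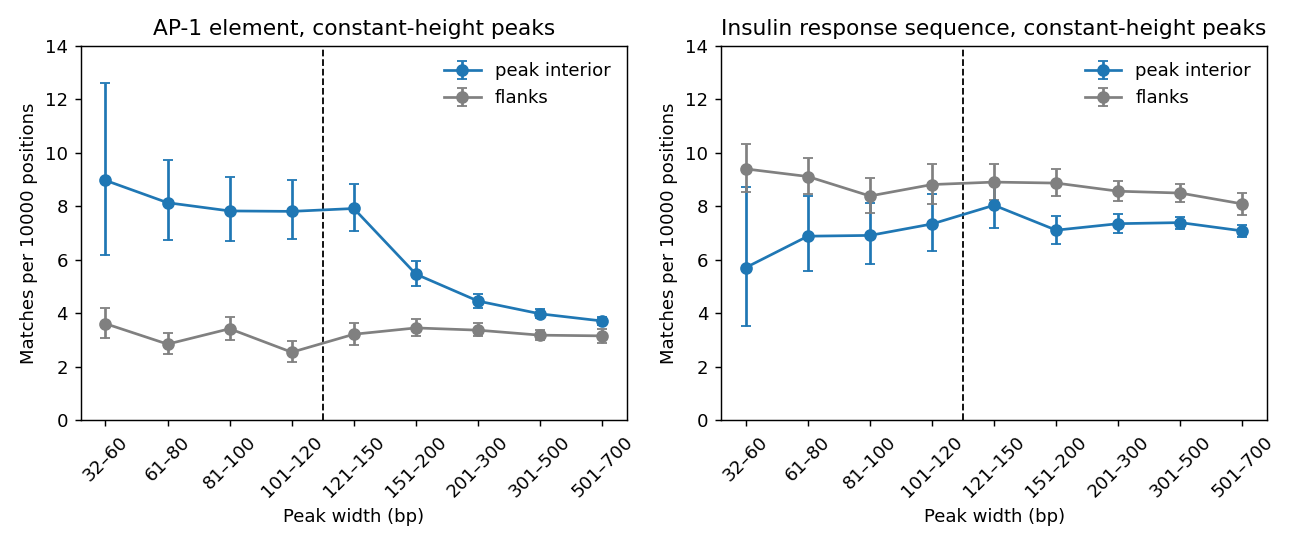
Matches per 10000 positions (y axes, with exact 95% Poisson intervals) of the AP-1 element (left) and the insulin response sequence (right) in the interiors (blue) and in the flanks 1000 bp away (grey) of peaks of constant height, by peak width (x axes), with a dashed line at 120 bp. The AP-1 density in interiors lies between 7.81 and 8.97 up to 150 bp and is 3.71 at 501 to 700 bp, and the interior points of the insulin response sequence lie below the flanks in each class.

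The insulin response sequence, the element reported for PARIS, was not denser in narrow peaks than beside them. It occurred 467 times in their interiors, 6.75 times per 10000 positions (6.15 to 7.39), against 8.85 (8.50 to 9.21) in the flanks. In wider peaks of constant height it had 7.27 (7.14 to 7.41) against 8.52, and in the others 4.62 (4.53 to 4.71) against 7.43. It was sparsest within 15 bp of the ends on either side, with 2.57 at narrow peaks (2.20 to 2.97). This stretch lies partly outside the peak and takes in the base pattern described above. Read over 100 bp windows, which include these ends, the element was present in 4.21% of narrow peaks and 7.56% of flanking windows, a difference of -3.36 percentage points. In the 10% of narrow peaks with the highest total signal the difference was -1.46 points, with an interval from -2.97 to 0.0490 that reaches 0. In the middle 50 bp of narrow peaks at least 80 bp wide the shares were 2.76% and 3.45%. All 100 bp windows of chromosomes 1 to 19 and X held it in 9.22%. An interior element was present in 438 narrow peaks (2.98%, 2.72 to 3.27). It was sparser near TSSs, with 2.36 per 10000 positions (1.38 to 3.78), than in introns (7.30) and distal intergenic DNA (8.03). A and T are less common in narrow peaks than in their flanks, and the part of base composition in these values was not tested.

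Of the other motifs, CAGATGG, the E-box form bound by factors such as NeuroD, was the most frequent, with 3.60 matches per 10000 interior positions (3.17 to 4.08) against 2.51 (2.33 to 2.71) in the flanks. The E-box CACGTG had 1.64 (1.36 to 1.97) against 1.34. The remaining motifs were rare. GGGGCGGGG, for SP and KLF factors, had 0.830 (0.626 to 1.08) against 0.373. TGACGTCA, the cAMP response element bound by CREB, had 0.222 (0.124 to 0.365) against 0.0695 (0.0418 to 0.109). CCGGAAGT for ETS factors, GCGCATGCG for NRF1, AAGATGGCG for YY1 and AGGGGGCGC for CTCF were each found 6 to 15 times in all interiors. Their densities were 0.222 (0.124 to 0.365) against 0.0622 (0.0362 to 0.0995) in the flanks for ETS, a ratio of 3.56, and 0.196 (0.105 to 0.336) against 0.0444 (0.0229 to 0.0775) for NRF1, a ratio of 4.42. For YY1 they were 0.106 (0.0425 to 0.218) against 0.0628, and for CTCF 0.0906 (0.0332 to 0.197) against 0.0333. GCGCATGCG overlaps its own complement, so a single site can be counted on both strands. The 13 NRF1 matches in interiors lay in 7 narrow peaks, and the 12 in the flanks lay in 8 windows. GGGGCGGGG can overlap itself, and its 55 matches lay in 48 narrow peaks. The intervals treat matches as separate and are too narrow for these motifs. Ratios above 1 were also found in wider peaks. In those of other shape the ratio was 4.87 for NRF1, 3.08 for GGGGCGGGG (2.22 in narrow peaks), 2.74 for CTCF and 2.60 for YY1. It was 2.40 for ETS and 2.09 for TGACGTCA, below the 3.56 and 3.19 of narrow peaks. For CAGATGG it was 1.15 against 1.43. In wider peaks of constant height it was 1.82 for NRF1, 1.33 for GGGGCGGGG and 1.28 for ETS. In the tiled 100 bp windows of chromosomes 1 to 19 and X, CAGATGG was present in 1.93%, CACGTG in 0.958%, GGGGCGGGG in 0.167%, TGACGTCA in 0.0521%, CCGGAAGT in 0.0587%, GCGCATGCG in 0.0143%, AAGATGGCG in 0.102% and AGGGGGCGC in 0.0185%. All were read on both strands, and none of these motifs is contained in another. Motifs such as GGGGCGGGG and GCGCATGCG are rich in G and C, as are narrow interiors beside their flanks. The part of base composition in these ratios was not tested. A match is a stretch of letters and does not show a bound site.

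Six-letter words, counted in the same interiors with both strands together, gave a view without chosen motifs. Of 2080 words, 1639 occurred at least 100 times in narrow peaks. Against wider peaks of constant height, the words with the highest ratios were CCTCTC (1.62), CTCTCC (1.59), AGGGCG (1.59) and GAGTCA (1.58), the last being the core of AP-1. GACTCA, from the same element, ranked 14 with 1.49. Of the AP-1 cores with A or T in the middle, GAATCA had 1.14 and GATTCA 1.03. Against their own flanks, narrow peaks were most enriched in words rich in CG, led by CCGCGC (2.27) and GCGGGA (2.25), and GAGTCA ranked 13 with 1.87. Words made of C and T only, such as CCTCTC, thus stood beside the AP-1 core at the top of the first ranking.

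The 10 narrow peaks with the highest maximum signal were all of a shape other than constant height. They were led by the peak upstream of Mybphl, with a maximum of 372, followed by peaks assigned to Wdr20rt (331, intergenic), Rgs7bp (317, in intron 2 of 5), Ociad2 (311, intergenic) and 4931440P22Rik (309, 325 bp upstream of its TSS and inside the neighbouring gene Tiparp). Rgs7bp anchors regulators of G protein signalling at the membrane. The next was assigned to the TSS of Kremen1 (297) but lay in intron 2 of 8 of Znrf3, a ubiquitin ligase that restrains Wnt signalling. That of Gm10638 (288) lay in an intron of the ubiquitin ligase gene Siah1a, and that of Klhdc4 (277) in an intron inside Gm20388, while that of Gm32455 (275) was intergenic. The peak of Kcnk2 (271), which encodes a background potassium channel, was in intron 3 of 6 of that gene. Among the 10 highest within 1 kb of a TSS, the peak of Aimp2 was the only one of constant height, 79 bp wide with a maximum of 234. The others were those of Mybphl and 4931440P22Rik and peaks at Gprasp2 (243, inside Bhlhb9), the amino acid transporter Slc38a2 (238), the RNA helicase Ddx6 (226), Cfap97 (224), the DNA polymerase Polm (212), the postsynaptic protein Anks1b (203) and the endoplasmic reticulum turnover receptor Retreg1 (202). The regions of maximum signal at Cfap97 and Anks1b lay on a TSS. The narrowest 5 peaks, 32 to 35 bp wide, had maxima from 98 to 118 and were assigned to Mylip, 3110009E18Rik, Kcmf1, Gm11266 and the interleukin receptor gene Il1r1, and 4 of them were of constant height.

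Narrow peaks were assigned to 7979 genes, and the genes with the most were long ones, most of them known from neurons. The authors assigned each peak to a TSS, which need not belong to the gene that holds the peak. Ntm, a cell adhesion molecule, had 25 of its 88 peaks among the narrow ones, beside 14.7% of all peaks in the list. The splicing regulator Rbfox1 had 22 of 133 and Dlg2, a scaffold of the postsynaptic density, 22 of 89. Auts2 had 17 of 96 and the cadherin Cdh13 15 of 67. The RNA-binding protein genes Celf2 and Celf4 had 14 of 94 and 14 of 91. The neurotrophin receptor Ntrk3 had 14 of 69 and the cAMP phosphodiesterase Pde4d 14 of 54. The synaptic scaffold Magi2 had 12 of 63. Of these 169 narrow peaks, 158 were of constant height and 9 had an interior AP-1 element, of which 4 belonged to Celf4. Over all narrow peaks these shares were 94.9% and 3.65%. These genes span from 276.5 kb (Celf4) to 1973 kb (Dlg2). Per Mb of gene body, the density of narrow peaks was above that of the gene's chromosome in all 10, from 1.23 times for Magi2 to 3.70 times for Ntrk3 and 3.71 times for Celf4. The genes were chosen for their number of narrow peaks, which favours such values. For all peaks the same ratio ran from 0.885 for Magi2 to 6.10 for Celf4, and for Ntrk3 it was 2.12.

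Gene lists for the cells and pathways of the hippocampus were then read against all 21938 protein-coding genes, of which 31.4% had an assigned narrow peak and 6.01% one within 1 kb of a TSS. The median gene length stands beside each share of genes with an assigned narrow peak, since a longer gene offers more room for peaks, and was 17.4 kb for all genes. Postsynaptic scaffold genes had a narrow peak in 11 of 14 cases (78.6%, median length 83.1 kb), presynaptic genes in 12 of 17 (70.6%, 68.98 kb), excitatory neuron genes in 12 of 18 (66.7%, 57.6 kb) and inhibitory neuron genes in 8 of 14 (57.1%, 11.8 kb). Endothelial markers had one in 6 of 8 (75%, 73.6 kb), oligodendrocyte markers in 5 of 12 (41.7%, 16.3 kb), astrocyte markers in 4 of 11 (36.4%, 13.6 kb) and microglial markers in 1 of 11 (9.09%, 7.75 kb). Among 10 liver genes, which serve as an outside reference, 1 had one (9.38 kb). The lists are short, and cell types with long marker genes cannot be told apart here from cell types with more chromatin in the sample.

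At gene starts the lists of excitatory and inhibitory neuron genes had the highest shares. A peak of any width lay there for 14 of 18 and 10 of 14 of these genes, beside 9291 of all 21938 protein-coding genes. Next for narrow peaks were postsynaptic scaffold and mitochondrial biogenesis genes (14.3% each) and endothelial markers (12.5%). They had a peak of any width there in 14 of 14, 9 of 14 and 3 of 8 cases. Presynaptic genes had 5.88% for narrow peaks and 15 of 17 for any width. A narrow peak within 1 kb of a TSS was found for 4 of 18 excitatory neuron genes (22.2%), among them the glutamate transporter gene Slc17a6, the NMDA receptor subunit gene Grin2a and the transcription factor gene Prox1. It was found for 3 of 14 inhibitory neuron genes (21.4%). Gad1, which makes GABA, had 3 such peaks, 86 to 99 bp wide with maxima of 65, 114 and 118. The vesicular GABA transporter gene Slc32a1 had 1 of 94 bp (maximum 128), and the calcium-binding protein gene Pvalb 1 of 88 bp (maximum 156). The peaks at Slc17a6, Grin2a and Prox1 had maxima of 107, 105 and 119 and were of constant height. Synaptic genes with such a peak included Dlg2 (86) and Syn1 (107), which encodes a protein of synaptic vesicles. Tfam, the transcription factor of mitochondrial DNA, had 1 (74), as had Ppargc1b (107). Of other cells, the astrocyte gene Aldh1l1 (156) and the endothelial tight junction gene Cldn5 (99) had 1 each, and none of the oligodendrocyte, microglial or liver genes had any. The lists of these other cells and of liver hold 8 to 12 genes. That is too few to set 1 or none apart from the 6.01% of all protein-coding genes. In all, 1318 protein-coding genes had a narrow peak within 1 kb of a TSS, and for 576 of them no wider peak assigned to the gene lay within that distance.

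The 9 genes linked to PARIS include Zfp746, which encodes it, and are not a list of its targets. Of these 9 genes, 4 had narrow peaks (44.4%, median length 26.4 kb), beside 31.4% of all protein-coding genes. A peak of some width lay within 1 kb of a TSS for 4 of the 9 and for 9291 of all 21938 protein-coding genes. None of the narrow peaks of the 9 genes lay there, and 6.01% of all genes had a narrow one there. A list of 9 genes is too short to set these counts apart from the shares of all genes. Camk2a, the kinase gene of excitatory neurons, had 3 on chromosome 18, at 60978642 to 60978711 in intron 15 of 17 (maximum 54), 60982099 to 60982196 in intron 16 of 17 (99) and 60986255 to 60986309 in the 3′ UTR (87). Mdm4, a regulator of p53, had 1 of 90 bp in intron 10 of 10 (maximum 82). Ppargc1a, the mitochondrial coactivator reported as a target of PARIS, had 1 of 106 bp with a maximum of 45, at 490080 bp from the assigned TSS. Zfp746 itself had 1 of 108 bp, 8309 bp from the TSS, with a maximum of 119. It was the only one of these 6 that was not of constant height. The maxima of the Ppargc1a and Mdm4 peaks and of 1 Camk2a peak lay below the lower quartile of narrow peaks. Pck1, G6pc, Igfbp1, Tkt and Nrf1 had no narrow peak. Of 13 Parkinson disease genes 8 had one (61.5%, 29.9 kb), with only Aimp2 near a TSS, and of 14 genes of mitochondrial biogenesis 7 had one (50%, 24.1 kb).

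Chromosome X held few narrow peaks for its length, as it held few wider ones. The 19 autosomes had a mean of 6.01 ± 0.739 narrow peaks per Mb of sequence without gaps (SD over chromosomes). Chromosome 14 had the lowest value, 5.09, and chromosome 11 the highest, 7.99. For chromosome X it was 2.08 per Mb (340 peaks) and for chromosome Y 0.0794 (7 peaks). The density on X was 0.347 times that of the autosomes (0.311 to 0.387). This ratio was 0.323 (0.304 to 0.343) for wider peaks of constant height and 0.239 (0.220 to 0.259) for the others. Of the peaks on X, 17.2% were narrow, against 13.3% to 16.5% on the autosomes. The number of X chromosomes per animal is not in the labels, and its part in these values cannot be told apart from that of the antibody.

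**Figure D5:**
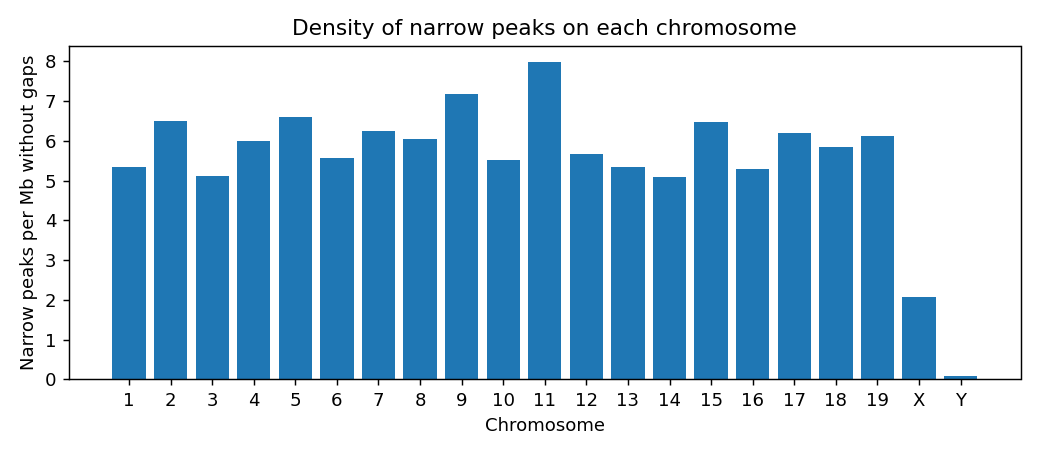
Narrow peaks per Mb of sequence without gaps (y axis) on each chromosome (x axis). The 19 autosomes lie between 5.09 and 7.99, X at 2.08 and Y at 0.0794.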

How the data were processed

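CUT&Tag peaks of 1 anti-FLAG library, detected against 1 IgG library, were analysed. Per the labels' protocols, the authors trimmed reads, mapped the pairs to mm10 with Bowtie2, dropped duplicates and reads of low quality, and ran SEACR. Tool versions and the SEACR mode and normalization are not given in the sources used here. Per the submitters' processing notes, deepTools was also used. The deposited values are signal: the total coverage over each peak and its maximum, both whole numbers of unstated scaling. Sequencing depth is unknown. The annotation table was joined by the region of maximum signal, and its copy of the total signal was equal for 100% of the narrow peaks it lists.

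Motifs, GC content and peak ends were read from the mm10 reference (GRCm38), gene lengths and alternative positions from GENCODE. Shares carry Wilson and densities exact Poisson 95% intervals, computed with scipy 1.17.1. Motif, distance and period searches were tested on simulated data. The members, gene lists and comparisons were chosen with earlier results of these data known. The split into interiors and ends, the split of AP-1 by its middle base, the 6-letter words, the genome copies and the comparison by width were chosen after the values were seen. Genes named are those of the 10 highest, the 5 narrowest and the 10 highest narrow peaks within 1 kb of a TSS, the 10 genes with the most narrow peaks, list genes with one within 1 kb of a TSS, and genes linked to PARIS. The sequences shown follow from width, height and motif matches, with none from chromosome 18 or a UTR. A few genes that meet these rules are not reported here.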

Additional observations from a re-analysis of the deposited data

How the results depend on the processing

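The 8 results were recomputed under 62 alternatives, 7 of them chosen after seeing the data. No sign changed, though the interval of 1 value reached 0, and 29 values stayed within the counting interval of the reported value or, for the number of peaks, within 1.5 times it. The others were these. With only peaks above the median maximum signal, and with only the 10% of highest total signal, the number was by construction 7186 and 1470, the share within 1 kb of a TSS 9.30% and 8.71%, the GC difference 3.94 and 3.69 points, and the share of ends with the pattern 22.3% and 22.5%. In the 10% the difference of the insulin response sequence was -1.46 points (-2.97 to 0.0490). With limits of 100 and 150 bp, the share of constant height was 95.4% and 93.8% and the GC difference 4.69 and 4.15 points, and at 150 bp the insulin response sequence difference was -2.86 points. A looser (0.95) and a stricter threshold of flatness gave 96.5% and 88.6% of constant height. Distances of 500 bp and 3 kb gave 6.999% and 19.2% near a TSS. GENCODE, read at the middle of the highest region and with any base of the peak, gave 12.6% and 12.9% near a TSS and 32.8% and 32.7% distal intergenic. Without peaks holding repeat-masked bases the share near a TSS was 13.6%, the distal share 30.5%, the GC difference 4.89 points, the insulin response sequence difference -4.25 points and the X ratio 0.273. Peaks of constant height alone gave a GC difference of 4.35 points. Windows of 200 bp gave 3.60 and -4.72 points, and the middle 50 bp 3.27 and -0.694 points. The pattern read 1 base outwards was at 3.66% of ends. Except where a setting changes a value by construction, the cause was not tested. With 1 library, counting intervals are narrow and hold no error between animals, and the unknown depth limits what low peaks could show. No paired analysis was possible because each antibody has 1 library.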
